A study of Mus musculus with 4 samples.

Results

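The genes examined were 42 that act in N-glycosylation, the attachment of a sugar tree to asparagine residues of secreted and membrane proteins, and in the later trimming and extension of that tree. They were taken by gene symbol from the non-control spots of the arrays, among 31829 gene names in all, and all 42 were found, with 56 probes. RNA of 4 livers of male C57BL/6J mice fasted for 24 h was compared with RNA of 4 livers of mice fasted for the same 24 h and then given food for 2 h (re-fed), all from animals aged 8 to 12 weeks that carried no engineered allele or drug according to the labels. Each of the 4 two-colour arrays held 1 fasted and 1 re-fed liver paired at random, with the fasted liver in the red dye Cy5 on replicates 1 and 2 and in the green dye Cy3 on replicates 3 and 4. Every mouse had been through the fast, so each ratio sets a fasted liver against a liver 2 h into feeding.

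N-glycosylation begins with nucleotide sugars made in the cytosol. A chain of ALG enzymes then builds an oligosaccharide on the lipid dolichol in the membrane of the endoplasmic reticulum (ER), and the oligosaccharyltransferase moves it as a block onto the nascent protein. Glucosidases of the ER trim it while the glycoprotein folds, and mannosidases and glycosyltransferases of the Golgi remodel what is left. Most plasma proteins that hepatocytes secrete carry such glycans.

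Ratios are given as log2 of fasted over re-fed liver, so that a negative value is a lower level in the fasted liver. A gene was called at an adjusted p under 0.10 in limma (Benjamini-Hochberg adjustment over all 19721 kept probes) together with a change of at least 1.5-fold, and each gene was represented by its brightest kept probe. Probes had to rise well above background in every liver of at least 1 condition to be kept. Levels are log2 normalized intensities of 1 dye channel and were compared only within a probe. With 4 arrays the precision of each ratio is limited, and in whole liver fewer cells of a type and less RNA per cell cannot be told apart.

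Of the 42 genes, 39 were measured. In fasted liver 7 of them were called lower and 0 were called higher, whereas over all 16085 genes 2.13% were called lower and 1.82% higher. At an unadjusted p under 0.05 in limma, 18 of the 39 were lower and 0 higher, against 11.7% and 10.3% of all genes. Rebuilt SAM, the test of the study's methods, called 7 lower and 0 higher, against 2.27% and 2.02% of all genes. Median centring in place of loess shifted the array as a whole towards lower values, with 3.35% of all genes called lower and 1.23% higher, and 9 and 0 of the 39. The genes called lower were Gmppb, B4galt5, Gfpt1, Mogs, Uap1, Alg2 and Ddost. In either direction and with no fold limit, 12 of the 39 passed an adjusted p of 0.10 in limma, all of them lower, against 11.2% of all genes. The median log2 ratio of the 39 genes was -0.20, with medians of -0.15, -0.29, -0.23 and -0.19 on replicates 1 to 4, and the median of all genes was 0.0033. Ratios were below 0 on all 4 arrays for 14 of the 39 (15.7% of all genes) and above 0 on all 4 arrays for 3 (14.1% of all genes). The levels of all 4 fasted livers lay below those of all 4 re-fed livers for 12 of the 39, against 7.77% of all genes, and above them for 1, Alg1, against 6.06% of all genes.

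**Figure D1:**
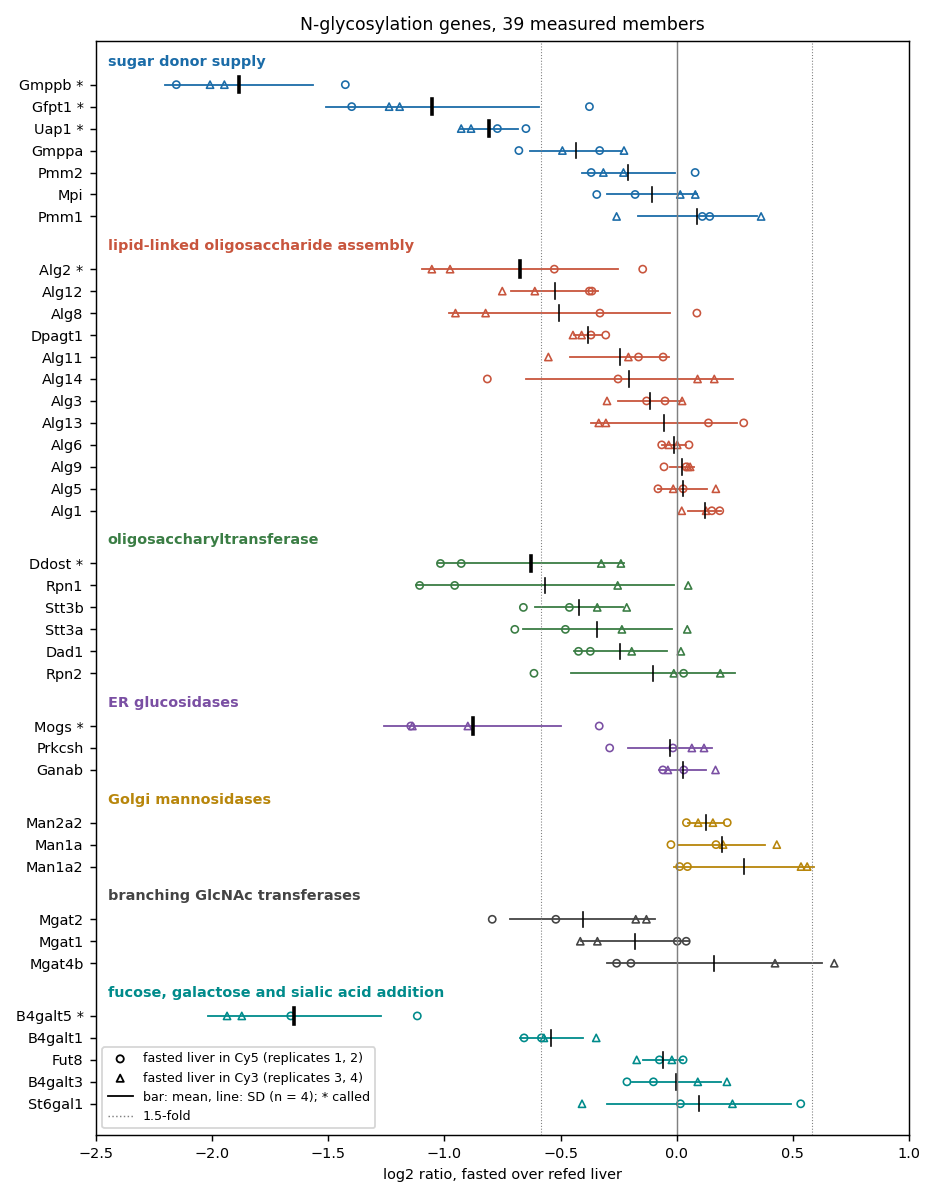
Log2 ratio of fasted over re-fed liver (x axis) for the 39 measured genes, grouped by role. Circles are replicates 1 and 2, with the fasted liver in Cy5, triangles are replicates 3 and 4, with the fasted liver in Cy3, bars are means and lines are SDs (n = 4). The 7 genes with an asterisk were called lower, and Gmppb and B4galt5 lie farthest to the left.

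The arrays themselves differed in brightness and in the markers of some cell types. Median spot brightness lay between 40 and 75 in red and between 44 and 96 in green, while local background had medians of 25 to 35 and of 20 to 33. All 9 liver markers on the array were kept, among them albumin. Markers of pancreatic acinar cells stood apart in 1 liver: over 18 probes of 16 such genes the median ratio of replicate 3 was -3.14 and the other 3 arrays had medians from -0.033 to 0.016. The log2 of the summed level of these probes reached 16.3 in the re-fed liver of replicate 3, against at most 11.7 in any fasted liver. Of the 18 acinar probes 1, that of the defining factor Ptf1a, was not above background in any liver. The median ratio of 7 red blood cell markers was 2.08, -0.26, 2.37 and 0.25 on replicates 1 to 4. The part of acinar or blood RNA in the results was not tested. Over the 39 genes, the median without replicate 3 was -0.20.

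The supply of activated sugars held the largest change. Gmppb, the enzyme that makes GDP-mannose, the mannose donor, was 3.69-fold lower in fasted liver. Gfpt1, which commits fructose-6-phosphate to the hexosamine pathway, and Uap1, which forms UDP-N-acetylglucosamine at the end of that pathway, were 2.07-fold and 1.75-fold lower. Of the 7 genes of this group, 3 were called lower, 1 more passed the adjusted p but not the fold limit, and 3 did not pass, with a median of -0.43.

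The probe of Gmppb (NM_177910) maps to the plus strand of chromosome 9, from 107953830 to 107953889 (mm9 build, as for all probes here). Its level was 9.43, 9.76, 9.62 and 9.66 in the 4 fasted livers and 10.86, 11.91, 11.63 and 11.61 in the 4 re-fed livers. No fasted liver came within 1 log2 unit of a re-fed one. The ratios were -1.43, -2.15, -2.01 and -1.95, with a mean of -1.88 ± 0.32 (SD, n = 4) and an adjusted p of 0.00277 in limma. Counted from the lowest, this mean was number 15 among the 16085 genes.

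Gmppa encodes a related protein that binds Gmppb and restrains it. Its ratios of -0.33, -0.68, -0.23 and -0.49 were all below 0, with a mean of -0.43 ± 0.20 (SD, n = 4; adjusted p of 0.0543 in limma), and its change of 1.35-fold was under the fold limit. A second probe gave -0.44. The ratio of Gmppa exceeded that of Gmppb on 4 of 4 arrays, by 1.45 on average (95% interval of the mean difference 1.005 to 1.90). The exact sign-flip test of that difference gave a two-sided p of 0.125, the smallest that 4 arrays allow, and 0.188 after adjustment over the 6 pairs of related genes that could be compared.

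Gfpt1 (NM_013528; chromosome 6, 87042142 to 87042201, plus strand) had levels of 9.38, 9.33, 9.16 and 9.16 in fasted liver. In re-fed liver they were 9.76, 10.73, 10.35 and 10.40. The groups did not overlap, although the re-fed liver of replicate 1 lay well below the other 3. The ratios were -0.38, -1.40, -1.19 and -1.24, with a mean of -1.05 ± 0.46 (SD, n = 4) and an adjusted p of 0.0255 in limma. Without replicate 3 the mean was -1.004 and the adjusted p was 0.107, so that the call was lost.

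Uap1 (NM_133806; chromosome 1, 172072212 to 172072271, minus strand) had levels of 10.72, 10.99, 10.63 and 10.50 in fasted liver. Its levels in re-fed liver were 11.37, 11.76, 11.55 and 11.39, all above every fasted value. Its ratios were the most even of the 7 called genes, at -0.65, -0.77, -0.93 and -0.89, with a mean of -0.81 ± 0.13 (SD, n = 4) and an adjusted p of 0.00675 in limma. The call was kept when any single replicate was left out.

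The enzymes that lead from fructose-6-phosphate to mannose-1-phosphate did not pass the test. Mpi, the isomerase that opens this branch, had a mean of -0.11 ± 0.19, with levels that overlapped. The phosphomannomutases Pmm2 and Pmm1 had means of -0.21 ± 0.20 and 0.09 ± 0.26 (SD, n = 4 each; adjusted p of 0.279 and 0.715 in limma). Pmm1 minus Pmm2 was above 0 on 4 of 4 arrays, at 0.30 on average, but the interval of -0.15 to 0.74 included 0 and the exact sign-flip p was 0.125.

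In the assembly of the lipid-linked oligosaccharide, 1 of 12 genes was called lower, 2 more passed the adjusted p below the fold limit, and 9 did not pass, with a median of -0.16. The called gene was Alg2, which adds the second and the third mannose to the growing chain. The enzyme of the first step, Dpagt1, and the lumenal mannosyltransferase Alg12 were lower by less than 1.5-fold. Means of the 12 genes ran from -0.68 for Alg2 to 0.12 for Alg1.

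The Alg2 probe (NM_019998) is placed at 47482754 to 47482813 of chromosome 4, minus strand. Its level was 9.81, 10.06, 9.61 and 9.73 in fasted liver and 9.95, 10.59, 10.66 and 10.70 in re-fed liver. Here the groups overlapped, since the fasted liver of replicate 2 lay above the re-fed liver of replicate 1. The ratios were -0.15, -0.53, -1.05 and -0.98, with a mean of -0.68 ± 0.42 (SD, n = 4) and an adjusted p of 0.0651 in limma. The arrays with the fasted liver in Cy5 averaged -0.34 and those with it in Cy3 averaged -1.02, and the dye effect passed its own test (adjusted p of 0.063 in limma). The call was lost without replicate 2 (mean of -0.73, adjusted p of 0.154 in limma), where the mean stayed past the fold limit, and without replicate 3 or 4 (means of -0.55 and -0.58, adjusted p of 0.214 and 0.196 in limma), where it did not.

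Dpagt1, the target of tunicamycin, starts the pathway by placing N-acetylglucosamine phosphate on dolichol phosphate. Its levels were 10.93, 10.93, 10.95 and 11.03 in fasted liver and 11.23, 11.30, 11.40 and 11.44 in re-fed liver. The difference was small and even: the ratios of -0.31, -0.37, -0.45 and -0.41 gave a mean of -0.38 ± 0.06 (SD, n = 4; adjusted p of 0.0336 in limma), which is 1.30-fold. Alg12, which adds a mannose on the lumenal side, had levels of 7.23, 7.22, 6.82 and 6.81 in fasted liver and 7.60, 7.60, 7.43 and 7.57 in re-fed liver, again without overlap. Its mean was -0.53 ± 0.19 (SD, n = 4; adjusted p of 0.031 in limma), or 1.44-fold. This dim probe moved with the background correction: Alg12 was at -0.62 with none, -0.80 after plain subtraction and -1.02 in the scanner's processed signals, and was called in each of these, but at -0.19 with the correction fitted on every spot.

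Alg8, which adds the second glucose, had the next lowest mean at -0.50 ± 0.48 and an adjusted p of 0.164, with 0.09 on replicate 1 and -0.95 on replicate 4. The other members of the assembly line lay closer to 0. Alg11, for the fourth and the fifth mannose, was at -0.25, Alg14 and Alg13, whose products together add the second N-acetylglucosamine, at -0.20 and -0.05, Alg3 at -0.11, and Alg6, Alg9 and Alg5 between -0.01 and 0.03. Alg1, which adds the first mannose, was the only measured gene of the 39 with all fasted levels (9.32 to 9.49) above all re-fed levels (9.19 to 9.30), although its mean of 0.12 ± 0.07 did not pass (adjusted p of 0.393 in limma).

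The 6 subunits of the oligosaccharyltransferase in the set averaged below 0, with a median of -0.38, although Rpn2 was at 0.07 without replicate 2. Of these 1, Ddost, was called lower, Stt3b passed the adjusted p below the fold limit, and 4 did not pass. Stt3a and Stt3b are the alternative catalytic subunits, while Ddost, Rpn1, Rpn2 and Dad1 are shared by the complexes that contain them. In each of the 6 the mean of replicates 1 and 2 was lower than that of replicates 3 and 4.

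Ddost (NM_007838; chromosome 4, 137867910 to 137867969, plus strand) had levels of 10.44, 10.73, 10.98 and 11.11 in fasted liver and 11.46, 11.66, 11.31 and 11.35 in re-fed liver. The groups did not overlap, but the gap was wide on replicates 1 and 2 and narrow on replicates 3 and 4. The ratios were -1.02, -0.93, -0.32 and -0.24, with a mean of -0.63 ± 0.40 (SD, n = 4; adjusted p of 0.07 in limma). The dye effect was -0.34 (adjusted p of 0.0393 in limma), and with a dye term in the model the adjusted p of the fasting difference was 0.00278. The call was lost without replicate 1 or 2 (means of -0.50 and -0.53, adjusted p of 0.148 and 0.205 in limma), where the mean fell short of the fold limit, and without replicate 3 (mean of -0.73, adjusted p of 0.133 in limma), where it did not.

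Rpn1 showed the same split more strongly. Its ratios were -0.96 and -1.11 on replicates 1 and 2, but -0.25 and 0.05 on replicates 3 and 4. Its mean of -0.57 ± 0.55 lay just inside the log2 fold limit of 0.585 and the adjusted p was 0.17 in limma, with a dye effect of -0.46 (adjusted p of 0.0364). With a dye term in the model the adjusted p of the fasting difference was 0.00667 in limma. Replicates of opposite orientation also held different livers, so that with 2 arrays in each orientation a dye effect and a difference between livers cannot be fully told apart.

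Stt3b had levels of 10.06, 10.26, 10.31 and 10.42 in fasted liver and 10.72, 10.72, 10.65 and 10.63 in re-fed liver. Its mean was -0.42 ± 0.19 (SD, n = 4; adjusted p of 0.0554 in limma), and a dimmer probe gave -0.20. Stt3a averaged -0.34 ± 0.32 (adjusted p of 0.19 in limma). The catalytic subunits did not differ measurably from each other, with Stt3a minus Stt3b at 0.08 (95% interval -0.27 to 0.43; exact sign-flip p of 0.5). Dad1 was at -0.24 and Rpn2 at -0.10.

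Of the 3 genes of the ER glucosidases, 1 was called. Mogs, glucosidase I, removes the outermost glucose as soon as the oligosaccharide is on the protein. Its probe (NM_020619; chromosome 6, 83068810 to 83068869, plus strand) had levels of 11.62, 11.76, 11.80 and 11.77 in fasted liver and 11.96, 12.91, 12.70 and 12.91 in re-fed liver. The re-fed liver of replicate 1 was the lowest of its group but still above every fasted liver. The ratios were -0.33, -1.15, -0.90 and -1.14, with a mean of -0.88 ± 0.38 (SD, n = 4) and an adjusted p of 0.0271 in limma. The call was lost without replicate 2 (mean of -0.79, adjusted p of 0.102 in limma) and without replicate 3 (mean of -0.87, adjusted p of 0.109 in limma), in both with the mean past the fold limit.

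Ganab and Prkcsh, the catalytic and the accessory subunit of glucosidase II, which removes the remaining glucoses, were at 0.03 ± 0.10 and -0.03 ± 0.18 (SD, n = 4 each; adjusted p of 0.898 for each in limma). Their levels overlapped between the groups.

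**Figure D2:**
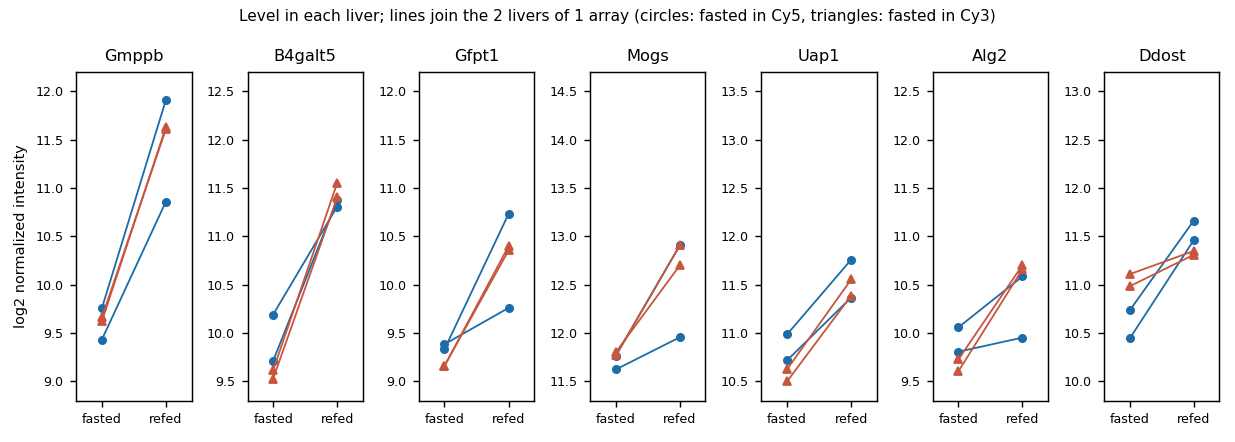
Log2 normalized intensity (y axis, spanning the same number of log2 units in each panel but starting at different levels) of the 7 called genes in each fasted and re-fed liver, with a line joining the 2 livers of 1 array. Circles are replicates 1 and 2 and triangles are replicates 3 and 4. All lines rise from fasted to re-fed, and Alg2 is the gene whose groups overlap.

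Of 14 genes that act in the Golgi, 11 were measured, of which 1 was called lower, 1 passed the adjusted p below the fold limit and 9 did not pass, with a median of -0.0017. For the 28 genes that act up to the ER glucosidases, 6 were called lower and the median was -0.24. Neither the difference between these medians nor that between the shares called was tested.

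The 3 measured mannosidases of the Golgi, which trim the glycan before it is rebuilt, averaged above 0, but 0 were called by limma and 0 had an unadjusted p under 0.05. Man1a, Man1a2 and Man2a2 had means of 0.19 ± 0.19, 0.29 ± 0.30 and 0.13 ± 0.08 (SD, n = 4 each) and adjusted p of 0.296, 0.244 and 0.376 in limma. Man1a2 was near 0 on replicates 1 and 2 (0.01 and 0.05) and higher on replicates 3 and 4 (0.54 and 0.56), and its dimmer probe averaged -0.07. With a dye term in the model, the brighter Man1a2 probe had an adjusted p of 0.0204 in limma, higher in fasted liver. Its change of 1.22-fold was below the fold limit. Man1a minus Man1a2 was -0.10 (95% interval -0.40 to 0.21; exact sign-flip p of 0.375). Man2a1, the other mannosidase II gene, was well above background in all 8 livers but its spot on replicate 3 was set aside by a quality flag. On replicates 1, 2 and 4 its ratios were 0.43, 0.52 and 0.47, and it was not in the fit because a value on all 4 arrays was required. With such spots kept, it averaged 0.42 with an adjusted p of 0.0326 in limma, higher in fasted liver but below the fold limit and so not called.

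Among the N-acetylglucosaminyltransferases that set the number of antennae, 3 of 5 were measured and 0 were called, while 1 had an unadjusted p under 0.05. Mgat2, which starts the second antenna, had a mean of -0.41 ± 0.31 (adjusted p of 0.127 in limma) and fasted levels (8.01 to 8.23) below all re-fed levels (8.25 to 8.80). Mgat1, which starts the first, was at -0.18, and Mgat4b at 0.16. Their signs differed with the dye orientation: Mgat1 averaged 0.02 with the fasted liver in Cy5 and -0.38 with it in Cy3, and Mgat4b averaged -0.23 and 0.55. Mgat4a was not well above background in any liver, and Mgat5 was so in 1 fasted and 1 re-fed liver, so neither was in the main fit. With no filter on dim probes they averaged 0.06 and 0.05, with adjusted p of 0.728 and 0.851 in limma, and were not called.

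The last group adds fucose, galactose and sialic acid, and held the second largest change of the 39. B4galt5, a galactosyltransferase that is also known for making the glycolipid lactosylceramide, was called lower, B4galt1 passed the adjusted p below the fold limit, and Fut8, B4galt3 and St6gal1 did not pass.

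The probes of B4galt5 gave different ratios, although the dimmer was not above background in fasted liver, so the start of each probe is shown, with the base letters in lower case and no part marked. Each probe is 60 bases long and was assigned by the array design to NM_019835 on the minus strand of chromosome 2, and the first 30 bases of each read as follows.
Brighter B4galt5 probe, chr2:167124056-167124115 (mm9): gttttaaaaggtgccaggggtacatttttg
Dimmer B4galt5 probe, chr2:167126904-167126963 (mm9): caaaggagcggcaaggactggatggcctca
On this strand the brighter probe lies nearer to the end of the gene, with 2788 bases between the probes. G and C make up 35.0% of its bases and 53.3% of those of the dimmer probe.

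By the brighter probe the level of B4galt5 was 9.71, 10.19, 9.53 and 9.62 in fasted liver and 11.38, 11.31, 11.40 and 11.55 in re-fed liver, with a gap of over 1 log2 unit between the groups. The ratios were -1.66, -1.12, -1.87 and -1.94, with a mean of -1.65 ± 0.37 (SD, n = 4) and an adjusted p of 0.0052 in limma, a 3.13-fold lower level. The dimmer probe was well above background in all 4 re-fed livers but in 0 of the 4 fasted livers, so that its fasted level is only bounded. Its ratios were -0.19, -0.27, -0.0025 and -0.30, with a mean of -0.19 ± 0.14 (SD, n = 4; adjusted p of 0.24 in limma). On average, the higher of the background limit and the fasted signal of this probe equalled its fasted signal. A bound set in this way is therefore the measured 1.14-fold itself and adds nothing to it. With its fasted signal not well above background, the dimmer probe gives no estimate of the change. It cannot decide for or against the 3.13-fold of the brighter probe, and why the probes differed was not tested.

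B4galt1, the main galactosyltransferase of N-glycans, had levels of 10.51, 10.45, 10.66 and 10.65 in fasted liver and 11.17, 11.03, 11.23 and 11.00 in re-fed liver. No values overlapped, and the mean was -0.54 ± 0.13 (SD, n = 4; adjusted p of 0.0204 in limma), or 1.45-fold. Its dimmer probe gave -0.43. B4galt3 averaged -0.0017 ± 0.19 (SD, n = 4). The ratio of B4galt5 was below that of B4galt1 on 4 of 4 arrays, by 1.11 on average (95% interval 0.39 to 1.82), and below that of B4galt3 on 4 of 4 arrays, by 1.65 (95% interval 0.77 to 2.52). The exact sign-flip p was 0.125 for each pair, and these differences rest on the brighter B4galt5 probe.

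Fut8, which adds the core fucose, was at -0.06 ± 0.09. St6gal1, which caps antennae with sialic acid and is strongly expressed in liver, was at 0.10 ± 0.40 with ratios of 0.02, 0.53, -0.41 and 0.24, so that its direction differed between replicates.

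**Figure D3:**
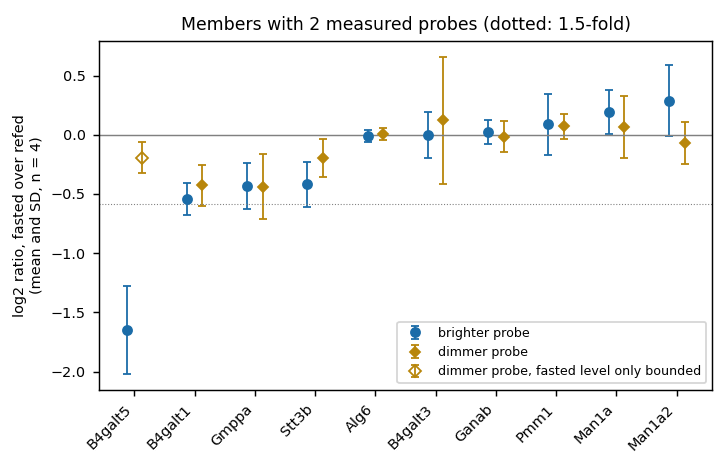
Mean log2 ratio of fasted over re-fed liver (y axis; bars are SD, n = 4) for the brighter and the dimmer probe of the 10 genes with 2 kept probes. The open diamond is the dimmer B4galt5 probe, which was not well above background in fasted liver and gives no estimate of the change. The probes of the other 9 genes differ by at most 0.36.

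Of the 10 genes with 2 kept probes, 6 had the same sign by both and 4 had opposite signs. B4galt5 is among the 6, but its dimmer probe passed the filter only through the re-fed livers. Its sign is therefore not counted as agreement between the probes. The 4 with opposite signs were Alg6, Ganab, Man1a2 and B4galt3, with all 8 means between -0.07 and 0.29. Apart from B4galt5, no pair differed in call, and Man1a2 had the largest difference, at 0.36.

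A dye effect was called for 9 of the 39 genes, against 15.4% of all genes. The 9 were Alg2, Alg8, Alg13, Ddost, Rpn1, Mgat1, Mgat2, Mgat4b and Man1a2. In fasted over re-fed terms, Ddost, Rpn1, Mgat2, Mgat4b and Man1a2 were lower with the fasted liver in Cy5, and Alg2, Alg8, Alg13 and Mgat1 were lower with it in Cy3. The called genes Gmppb, B4galt5, Gfpt1, Mogs and Uap1 had dye effects between 0.09 and 0.26 that did not pass, with adjusted p from 0.159 to 0.646 in limma. With a dye term in the model the same 7 genes were called, against 2.29% of all genes called lower.

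**Figure D4:**
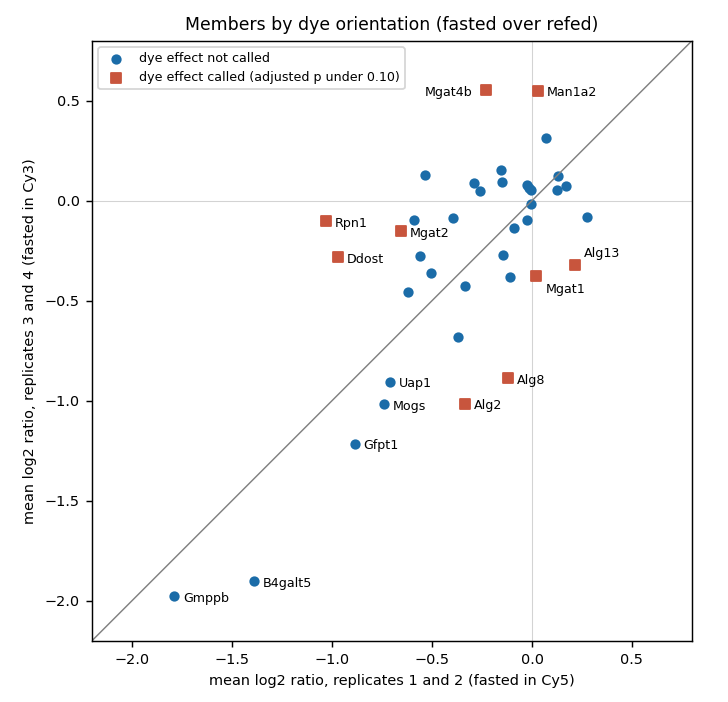
Mean log2 ratio of fasted over re-fed liver with the fasted liver in Cy5 (x axis, replicates 1 and 2) and in Cy3 (y axis, replicates 3 and 4) for the 39 measured genes. Squares mark the 9 genes with a dye effect, and the grey line marks equal values. Gmppb and B4galt5 lie low on both axes, Ddost and Rpn1 lie above the line and Alg2 and Alg8 below it.

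The promoter sequences of these genes were searched for short motifs known from the ER stress response and from CREB binding, in windows from 250 bases before to 50 bases after each gene's start (RefSeq, GRCm38.p6). The table held promoters of 35 of the 42 genes and of 5 of the 7 called genes, which did not include Gmppb and Alg2. Both strands were read, and a match is a description of letters only. The ER stress element (CCAAT, any 9 bases, CCACG) was present in 1 of the 35 genes, Alg12, and in 0.137% of all 27025 genes in the table. It is shown with its flanks, the fixed letters of the element in capitals, along the minus strand on which the gene lies.
Alg12, chr15:88819508-88819550 (GRCm38.p6): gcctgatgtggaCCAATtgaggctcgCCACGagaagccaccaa
The element runs from 220 to 202 bases before the start of Alg12, whose mean ratio was -0.53.

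The related element (ATTGG, any base, CCACG) and a further one (TGACG followed directly by TGG) were found in 0 of the 35 genes, and in 0.0444% and 0.714% of all genes. The letters CCACG form part of the first 2 of these elements and, read on the opposite strand, of the third. Alone they were present in 19 of the 35 genes (54.3%, against 35.5% of all genes), among them Gfpt1, Uap1 and Ddost of the called genes. The full CREB site TGACGTCA was present in 2 of the 35, Alg13 and B4galt3 (5.71%, against 2.03% of all genes), and in 0 of the 5 called genes. That of B4galt3 lies immediately before its start and is shown in capitals.
B4galt3, chr1:171270308-171270327 (GRCm38.p6, plus strand): ggctccgccccgTGACGTCA
The 5-base half-site TGACG, which is contained in the full site, was present in 9 of the 35 (25.7%, against 23.0% of all genes), including Mogs and Uap1. The mean ratios of Alg13 and B4galt3 were -0.05 and -0.0017.

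Further genes of the pathway, 61 in a separate list, gave a comparison outside the 42. Of these, 53 were measured, of which 5 were called lower and 0 higher, against 2.13% and 1.82% of all genes. At an adjusted p under 0.10 but below the fold limit, 8 more were lower and 1 was higher, and 39 did not pass that adjusted p. With no fold limit, 13 of the 53 were lower and 1 was higher, against 6.28% and 4.96% of all genes. The median was -0.10. The called genes were Edem1 (-1.03), which helps to extract misfolded glycoproteins for degradation, Calr (-0.95), the lectin chaperone calreticulin, Ostc (-0.89), a further oligosaccharyltransferase subunit, Nans (-0.80), which makes sialic acid phosphate, and Slc35c1 (-0.70), the Golgi transporter of GDP-fucose. Their adjusted p in limma lay between 0.013 and 0.0701.

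Within that list the genes of glycoprotein folding and ER mannose trimming had a median of -0.45 over 11 genes, with 2 called lower, and the further oligosaccharyltransferase subunits a median of -0.50 over 4 genes, with 1 called lower. Among these subunits Tusc3 averaged above 0, at 0.05 ± 0.16 (SD, n = 4; adjusted p of 0.812 in limma). The largest group, further genes of sugar donor supply, had a median of -0.01 over 16 genes, with 2 called lower. Genes for dolichol and its sugars had a median of 0.0034 over 11 genes and other Golgi enzymes a median of -0.0011 over 9 genes, with 0 called in each by limma. At an unadjusted p under 0.05 in limma, 5 of the 11 and 2 of the 9 were lower, against 11.7% of all genes. The 8 genes that were lower below the fold limit had adjusted p between 0.015 and 0.092 in limma. They were the glycoprotein trimming and cargo receptor genes Edem3 (-0.58), Mcfd2 (-0.56), Lman1 (-0.47) and Lman2 (-0.34), the oligosaccharyltransferase subunits Magt1 (-0.56) and Krtcap2 (-0.44), and the dolichol genes Dolpp1 (-0.41) and Dpm2 (-0.39). The 1 gene that was higher below that limit was Gne, which opens sialic acid synthesis from UDP-N-acetylglucosamine. Its ratios were 0.67, 0.75, 0.41 and 0.33, with a mean of 0.54 ± 0.20 (SD, n = 4; adjusted p of 0.031 in limma).

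The calls differed in how far they depended on single arrays. Gmppb, B4galt5 and Uap1 remained called whichever replicate was left out. Without replicate 3, on which acinar markers stood apart and without which 1.32% of all genes were called lower, these 3 were the genes called, at -1.84, -1.57 and -0.77, and Gfpt1, Mogs, Alg2 and Ddost kept negative means of -1.004, -0.87, -0.55 and -0.73 with adjusted p of 0.107, 0.109, 0.214 and 0.133 in limma. Without replicate 2, 4 of the 7 were called, and 1.51% of all genes were called lower. With the background correction fitted on every spot, in which the estimated background SD of replicates 3 and 4 rose to between 1075 and 4298, limma called 0 of the 39 genes lower and 0.0932% of all genes. At an unadjusted p under 0.05, 10 of the 39 were then lower, against 3.31% of all genes, and all 7 means were still negative, from -1.24 for Gmppb to -0.29 for Alg2.

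**Figure D5:**
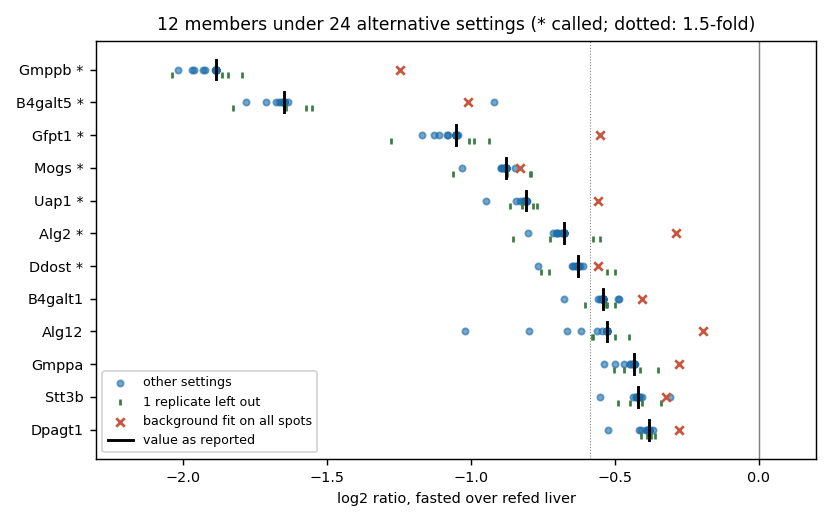
Log2 ratio of fasted over re-fed liver (x axis) of the 12 genes with an adjusted p under 0.10 under 24 alternative settings. Black bars are the values as reported, green ticks leave out 1 replicate and crosses fit the background on all spots. Blue points are the other settings, and asterisks mark the 7 called genes. For B4galt5 the blue point nearest 0 averages in the dimmer probe, which was not well above background in fasted liver. No value of any of the 12 genes reaches 0.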

How the data were processed

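Spot intensity of 4 two-colour Agilent arrays was used as deposited. The authors had labelled 200 ng of RNA per liver, measured the spots by Feature Extraction (Agilent) and deposited raw intensity with local background and quality flags, beside a log2 ratio table that they normalized by print-tip loess in limma. All arrays came from 1 slide, so slide was not a batch. Table rows were matched to spots by row number. With the values computed here, r was 0.532 on replicate 1 and 0.921, 0.949 and 0.957 on replicates 2, 3 and 4. The table's columns run as fasted over re-fed, with medians from -0.12 to 0.06. Its background step is not given in the sources used here.

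Here limma 3.58.1 (R 4.3.3) read the median signals. Spots whose local background exceeded 3 times the array median in either channel were left out (55 of 177588), normexp background correction was applied (offset 50), and ratios were normalized by loess within arrays. The offset shrinks ratios of dim probes. Flagged spots were removed (197 to 322 per array), and spots of 1 probe were averaged. Of 39429 probes, 19721 were kept, and 410 were called lower and 335 higher. lmFit and eBayes were run on the 4 ratios with no dye term. Levels of single channels were taken after loess and Aquantile scaling. SAM, the test named in the methods, was rebuilt as an alternative. The livers are separate animals.

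Genes were named by the symbols in the files. The 42 genes, the further lists, the groups by role, the pairs and the motifs were chosen with earlier results of these data known. Values are given in full for called genes among the 42, and the others are given by role with their means. Of the further list, called genes are named by rule, and those with an adjusted p under 0.10 below the fold limit were named after their values were seen. Probe coordinates are mm9 and promoters are GRCm38.p6. Alternatives covered background, source of values, normalization, filters, flags, dye, test, thresholds, choice of probe and each replicate left out.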

Additional observations from a re-analysis of the deposited data

Results flagged for a closer look

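Among 53 genes and marker lists scanned for an array far from the other 3, 2 stood out, where chance gives about 1 in 20. Alg9, a mannosyltransferase of the lipid-linked oligosaccharide, had ratios of 0.04 to 0.06 except on replicate 1, where it was -0.05, so that this gap took 0.847 of a range that was small as a whole. The median of the pancreatic acinar markers lay from -0.033 to 0.016 on replicates 1, 2 and 4 but at -3.14 on replicate 3, with a gap that took 0.985 of the range. Its part in the results was not tested.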

How the results depend on the processing

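Of 24 alternatives, 15 gave at least 1 of the 7 called genes another ratio, and 0 of the 7 changed direction. In the 24, 0 members of the 42-gene set were called higher in fasted liver, while 11 uncalled members, with means from -0.10 to 0.16, changed sign at least once. With normexp fitted on all spots, 0 members and 0 further pathway genes were called lower by limma (10 and 11 at an unadjusted p under 0.05) and the members' median was -0.13, while 0.0932% of all genes were called lower. Median centring in place of loess gave a members' median of -0.32, 9 members and 11 further genes called lower, while the median of all genes moved from 0.0033 to -0.057 and their calls from 343 lower and 292 higher to 539 and 198. A 2-fold limit left 3 members and 1 further gene (0.721% of all genes lower), and no fold limit gave 12 members and 13 further genes lower and 1 further gene higher (6.28% and 4.96% of all genes). The scanner's processed signals gave 10 members called lower and 1 further gene called higher, with 4.37% and 3.50% of all genes called lower and higher. Leaving out 1 replicate gave 3 to 7 members lower (1.32% to 2.67% of all genes), 0 to 0 higher, 4 to 7 further genes lower, 0 to 1 further genes higher, and a members' median of -0.20 to -0.17. An adjusted p of 0.05 left 5 members (1.79% of all genes), and no filter on dim probes left 6 (0.979%). The 2 livers of each array were paired at random. The test on separate channels, with no replicate block, called the same 7 members (2.07% of all genes lower). Levels near background and 4 arrays limit what could be detected, and the cause of these shifts was not tested.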
